A study of Mus musculus with 8 samples.

Results

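The genes described here are 10 marker genes of cardiac macrophages: Cd68, Csf1r, Adgre1, Cd163, Mrc1, Lyve1, C1qa, C1qb, Ccr2 and Lyz2. They were taken by symbol from a table of 55573 genes counted in mouse hearts, and all 10 were among the 17411 genes with enough counts to be tested. The hearts were those of male C57BLKS/J mice aged 24 weeks. There were 4 libraries of genotype db/db and 4 of genotype db/m, and no treatment is named for either genotype. The db/db mouse is homozygous for the db mutation of the leptin receptor and becomes obese and diabetic, while its db/m counterpart carries a single mutant copy and is the non-diabetic control. The mutation is carried by every tissue, and heart tissue rather than sorted cells was sampled, so a marker's level depends on how many macrophages the sample held and on how much RNA each of them made. Fewer cells of a type and less RNA per cell cannot be told apart in such libraries. Nothing in the labels ties a library to its own mouse, so p-values rest on the spread between samples, some of which may be technical.

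Macrophages are the most abundant leukocytes of the resting heart. A resident population seeded before birth, marked by the scavenger and endocytic receptors CD163, CD206 (Mrc1) and LYVE1 and by TIM4, renews itself locally, while cells that carry the chemokine receptor CCR2 are replenished from blood monocytes. Both populations need signalling through the CSF1 receptor, make the C1q subunits of complement and depend on the transcription factor PU.1. None of the markers is exclusive: Lyve1 also marks lymphatic endothelium, Lyz2 is high in neutrophils and monocytes, and Mrc1 is found on some endothelial cells.

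Stretches upstream of a few genes are printed. C1qb and C1qc were taken because they lie side by side and were counted in nearly fixed proportion. Mrc1 was taken because it held more matches to the PU.1 core than any other member window. Lyz2 is set beside Lyz1, a close paralogue next to it. RefSeq promoter windows on GRCm38.p6 were found for 6 of the 10 members, and the 250 bases before the start are shown 5′ to 3′ on the strand of the gene. Capitals mark the PU.1 core GAGGAA on either strand.
C1qb, chr4:136886201-136886450, minus strand: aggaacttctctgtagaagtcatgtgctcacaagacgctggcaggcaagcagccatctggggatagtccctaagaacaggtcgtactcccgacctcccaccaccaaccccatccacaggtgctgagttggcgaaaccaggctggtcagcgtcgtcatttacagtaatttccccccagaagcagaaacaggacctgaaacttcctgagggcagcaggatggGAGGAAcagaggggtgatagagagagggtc
C1qc, chr4:136892915-136893164, minus strand: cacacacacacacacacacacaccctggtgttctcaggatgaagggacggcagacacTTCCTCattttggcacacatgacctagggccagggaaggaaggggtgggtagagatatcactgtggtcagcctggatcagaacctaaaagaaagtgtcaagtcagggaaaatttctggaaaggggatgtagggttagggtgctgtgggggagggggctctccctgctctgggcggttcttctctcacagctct
Mrc1, chr2:14229164-14229413, plus strand: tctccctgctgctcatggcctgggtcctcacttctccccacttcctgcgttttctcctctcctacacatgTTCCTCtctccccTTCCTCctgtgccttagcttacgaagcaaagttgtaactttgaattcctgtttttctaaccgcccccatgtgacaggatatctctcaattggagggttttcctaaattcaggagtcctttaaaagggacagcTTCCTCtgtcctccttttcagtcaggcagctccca
Lyz2, chr10:117282273-117282522, minus strand: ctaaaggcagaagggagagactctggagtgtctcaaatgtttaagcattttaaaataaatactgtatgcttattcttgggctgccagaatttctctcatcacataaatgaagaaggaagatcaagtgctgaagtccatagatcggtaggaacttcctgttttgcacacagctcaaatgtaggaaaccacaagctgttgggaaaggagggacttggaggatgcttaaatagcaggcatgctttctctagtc
Lyz1, chr10:117292869-117293118, minus strand: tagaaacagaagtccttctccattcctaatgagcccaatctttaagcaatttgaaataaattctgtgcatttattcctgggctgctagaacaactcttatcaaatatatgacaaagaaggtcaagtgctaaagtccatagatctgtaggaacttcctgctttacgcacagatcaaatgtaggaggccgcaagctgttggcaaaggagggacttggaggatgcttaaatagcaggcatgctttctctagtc
The core was present in 3 of the 6 member windows (C1qb, Cd68 and Mrc1, with 3 matches in Mrc1) and in 23.3% of the 32851 windows of that length in the RefSeq table. The longer string GAGGAAGT, which contains the core, was in 0 of the 6 member windows, in the C1qc window and in 2.44% of all windows. A match is only a run of letters, not a bound site. The Lyz1 and Lyz2 windows were identical at 79.4% of aligned positions. Their transcripts were identical at 95.8% over 1264 bases, and it is through the transcripts that the genes could share reads.

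Total counts per library were similar, from 19541757 to 22249911. Cardiomyocyte markers made up 19590 to 27603 CPM in the 8 libraries, where CPM is the count scaled to 1e6 of TMM-adjusted library size, so the defining genes of the labelled tissue were present in all of them. The 10 members together held between 0.0367% and 0.114% of all counts in a library. Db/m replicates 1 and 3 stood apart: their adipocyte markers summed to 260 and 854 CPM against 24.4 to 37.1 in the other 6 libraries, and their atrial markers to 1632 and 3887 against 16.0 to 118. Db/m replicate 3 also read long genes more heavily, with a Spearman correlation of 0.44 across the 17411 tested genes between exon length and its level relative to the mean of all libraries (-0.33 to -0.04 in the other 7). Genes are not independent replicates, and that correlation describes the library only.

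No macrophage marker passed the test for a difference between db/db and db/m hearts. EdgeR's quasi-likelihood test with Benjamini-Hochberg adjustment over all genes called 0 of the 10 members, where it called 0.00574% of all tested genes, a single gene. Unadjusted, 0 of the 10 had a p under 0.05, against 13% of all tested genes, and DESeq2 and limma-voom also called 0 (1.78% and 0.747% of their tested genes). In 0 of the 10 did the genotypes' libraries separate without overlap, which they did in 9.65% of tested genes. Fitted log2 fold changes (db/db over db/m) were below 0 in 8 members and above 0 in 2, with a median of -0.30, where the median over all tested genes was -0.02 and 52.3% of them were below 0 (64.5%, with a median of -0.13, when libraries were scaled by total counts only, which gave the members -0.42). The members' median was -0.15 without db/m replicate 3, -0.09 without db/m replicates 1 and 3 (an alternative chosen with the data known) and -0.03 without db/db replicate 4. Leaving out db/db replicate 2 moved it to -0.47, and leaving out db/db replicate 3 to -0.54.

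**Figure D1:**
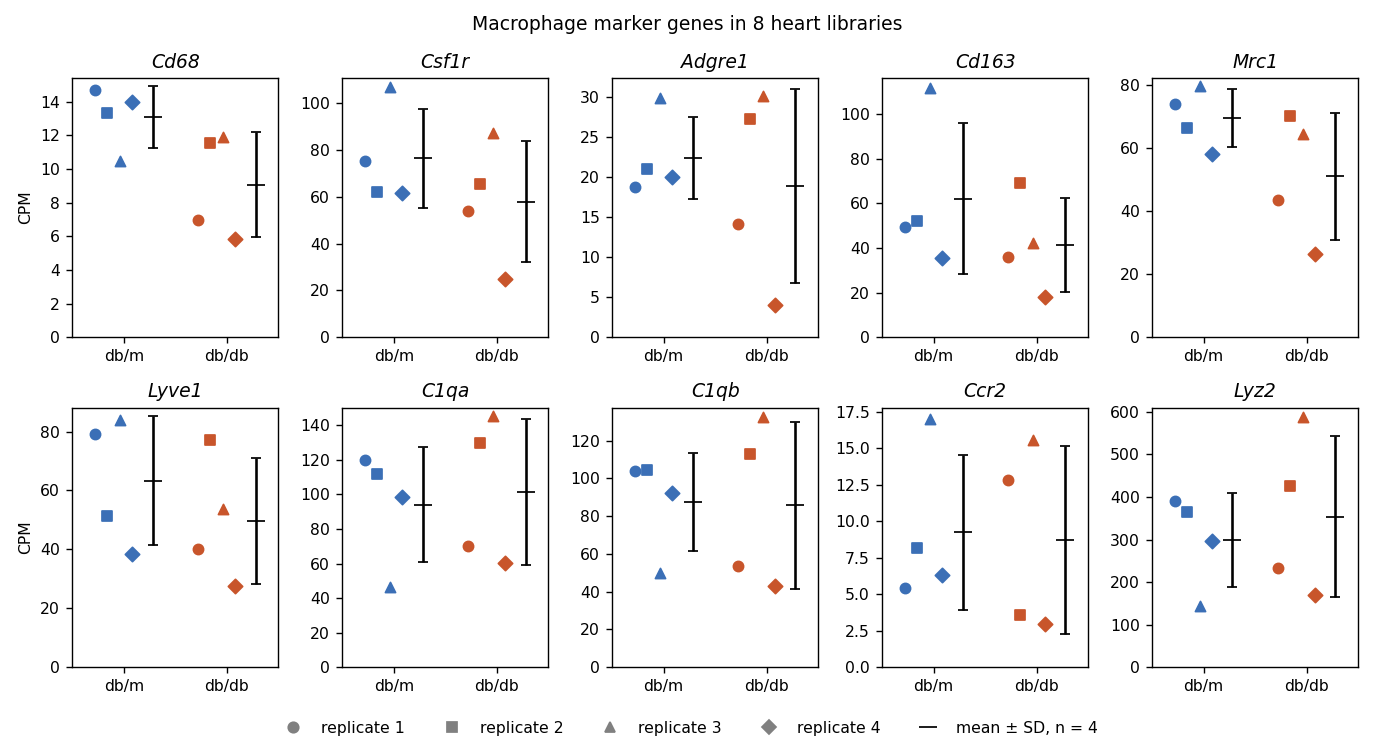
Level of each macrophage marker in CPM (vertical axes, from 0) in the 4 db/m and 4 db/db libraries; each point is a library, its shape the replicate number, and bars give mean ± SD (n = 4). The genotypes overlap in all 10 panels, and db/db replicate 4 (diamond) is the lowest of the 8 libraries in 8 of them.

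Csf1r encodes the receptor for CSF1 and IL-34 on which macrophage survival depends (ENSMUSG00000024621, chromosome 18, 61100598 to 61132149, mm10). It had 75.4, 62.2, 106.7 and 61.8 CPM in db/m replicates 1 to 4 and 54.0, 65.6, 87.1 and 25.0 in db/db replicates 1 to 4. The lowest value was in db/db replicate 4 and the highest in db/m replicate 3, and the other 6 libraries mixed the genotypes. Its log2 fold change was -0.40 (SE 0.33, 95% interval -1.13 to 0.33, adjusted p = 0.580 by edgeR with Benjamini-Hochberg adjustment). Leaving out db/db replicate 4 gave -0.15, leaving out db/m replicate 3 gave -0.19 and leaving out both db/m replicates 1 and 3 gave -0.10, while leaving out db/db replicate 3 gave -0.66. Its exons overlap those of Hmgxb3, which had 3717 counts in all libraries against 11621 for Csf1r, and reads of the shared part could belong to either.

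Cd68, a lysosomal glycoprotein of phagocytes (ENSMUSG00000018774, chromosome 11, 69664213 to 69666153), came closest to a difference. It had 14.7, 13.4, 10.46 and 14.0 CPM in the db/m libraries and 7.00, 11.5, 11.9 and 5.82 in the db/db libraries. Db/m replicates 1, 2 and 4 lay above all db/db libraries, and replicate 3 lay among them. The means were 13.1 ± 1.85 and 9.07 ± 3.12 CPM (SD, n = 4), with a log2 fold change of -0.53 (SE 0.25, 95% interval -1.08 to 0.02; edgeR with Benjamini-Hochberg adjustment, adjusted p = 0.397). Over the 18 other settings tried its adjusted p lay between 0.155, by limma-voom, and 0.596, without db/db replicate 4, and its direction did not change in any of them.

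Adgre1, the gene of the adhesion receptor F4/80 that is the classical mouse macrophage antigen (ENSMUSG00000004730, chromosome 17, 57358691 to 57483527), had the widest range of the 10 between libraries. It had 18.8, 21.0, 29.9 and 19.95 CPM in the db/m libraries and 14.2, 27.3, 30.2 and 4.06 in the db/db libraries. Its highest library exceeded its lowest 7.44-fold, and db/db held both. The log2 fold change was -0.24 (SE 0.47, adjusted p = 0.814 by edgeR with Benjamini-Hochberg adjustment) and turned to 0.095 without db/db replicate 4. Leaving out db/m replicate 3 gave -0.062, both db/m replicates 1 and 3 -0.12, db/db replicate 1 -0.12, db/db replicate 2 -0.47 and db/db replicate 3 -0.56.

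The resident-type receptors were lower on average in db/db, within the spread of the libraries. Cd163, the scavenger receptor for haemoglobin-haptoglobin complexes (ENSMUSG00000008845, chromosome 6, 124304656 to 124330527), had 49.2, 51.9, 111.4 and 35.4 CPM in the db/m libraries and 35.97, 69.1, 42.1 and 18.1 in the db/db libraries. Db/m replicate 3 had more than any other library, and the remaining 3 db/m libraries fell inside the db/db range. The log2 fold change of -0.58 (SE 0.42, adjusted p = 0.535 by edgeR with Benjamini-Hochberg adjustment) became -0.13 when db/m replicate 3 was left out, -0.33 when db/db replicate 4 was, -0.95 when db/db replicate 2 was and -0.083 when both db/m replicates 1 and 3 were.

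Mrc1, the mannose receptor that clears glycoproteins and microbes (ENSMUSG00000026712, chromosome 2, 14229392 to 14332057), had 74.1, 66.3, 79.6 and 58.2 CPM in the db/m libraries and 43.6, 70.1, 64.5 and 26.3 in the db/db libraries. Db/db replicates 1 and 4 lay below every db/m library, while replicates 2 and 3 lay among them. The means were 69.6 ± 9.33 and 51.1 ± 20.1 CPM (SD, n = 4), and the log2 fold change was -0.44 (SE 0.27, 95% interval -1.04 to 0.15, adjusted p = 0.474 by edgeR with Benjamini-Hochberg adjustment). Leaving out db/db replicate 4 gave -0.23, and leaving out both db/m replicates 1 and 3 gave -0.29. In the other direction, leaving out db/db replicate 2 gave -0.63 and db/db replicate 3 -0.57.

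Lyve1, a hyaluronan receptor (ENSMUSG00000030787, chromosome 7, 110850607 to 110863239), had 79.3, 51.3, 83.8 and 38.5 CPM in the db/m libraries and 40.0, 77.3, 53.6 and 27.4 in the db/db libraries. In db/m the high values were those of replicates 1 and 3, the libraries with adipocyte and atrial counts, whose part in the result was not tested beyond leaving them out. The log2 fold change was -0.35 (SE 0.33, adjusted p = 0.625 by edgeR with Benjamini-Hochberg adjustment) with all libraries; it became -0.15 when db/db replicate 4 was left out, -0.65 when db/db replicate 2 was, -0.21 when db/m replicate 1 was, -0.17 when db/m replicate 3 was and 0.14 when both db/m replicates 1 and 3 were. Markers of lymphatic endothelium, another source of Lyve1, summed to 230, 242, 313 and 274 CPM in the db/m libraries and 340, 191, 216 and 196 in the db/db libraries. Of these markers, 0 of the 6 tested passed in either direction (median log2 fold change 0.05). Their part in the Lyve1 level was not tested.

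C1qa and C1qb encode chains of C1q, which starts the classical complement pathway, and tissue macrophages are its main source. C1qa (ENSMUSG00000036887, chromosome 4, 136895917 to 136898803) had 120.2, 111.7, 46.5 and 98.2 CPM in the db/m libraries and 70.3, 129.98, 145.1 and 60.0 in the db/db libraries. C1qb (ENSMUSG00000036905, chromosome 4, 136880129 to 136886187) had 103.6, 104.5, 49.8 and 92.1 CPM in the db/m libraries and 53.8, 113.1, 132.7 and 42.8 in the db/db libraries. In both genes db/m replicate 3 and db/db replicates 1 and 4 were low and the other 5 libraries high. The 95% intervals of the log2 fold change, -0.66 to 0.88 for C1qa (0.11, SE 0.35) and -0.85 to 0.79 for C1qb (-0.03, SE 0.37), were centred near 0 (adjusted p = 0.895 and 0.976 by edgeR with Benjamini-Hochberg adjustment). The sign of both turned on single libraries: leaving out each in turn, C1qa ran from -0.12 (db/db replicate 3 out) to 0.29 (db/db replicate 4 out), and C1qb from -0.32 to 0.19 with the same libraries out. With db/m replicate 3 left out they had -0.11 and -0.22, and with both db/m replicates 1 and 3 left out -0.057 and -0.20.

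The C1q genes kept close to a fixed proportion while the highest library exceeded the lowest 3.12-fold in C1qa and 3.10-fold in C1qb. The ratio of C1qa to C1qb CPM ran from 0.933 to 1.40 and that of C1qb to its neighbour C1qc from 0.956 to 1.27, and both ratios overlapped between genotypes. C1qc, the gene of the remaining chain, had 94.1, 87.3, 39.2 and 82.0 CPM in the db/m libraries and 51.4, 98.7, 111.6 and 44.8 in the db/db libraries. Its log2 fold change was 0.02 (SE 0.34).

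Ccr2, the receptor for the monocyte chemokine CCL2 (ENSMUSG00000049103, chromosome 9, 124101950 to 124113557), was the lowest member and ordered the libraries in another way. It had 5.45, 8.15, 17.0 and 6.32 CPM in the db/m libraries and 12.8, 3.57, 15.6 and 2.93 in the db/db libraries. Db/m replicate 3 and db/db replicates 1 and 3 were high, whereas db/db replicate 2, among the highest libraries for the resident receptors and C1q, was next to lowest. With 55 to 412 counts per library the log2 fold change of -0.08 had a wide 95% interval of -1.33 to 1.16 (SE 0.56; edgeR with Benjamini-Hochberg adjustment, adjusted p = 0.953). Leaving out db/m replicate 3 gave 0.40, leaving out db/db replicate 4 gave 0.21, leaving out db/db replicate 3 gave -0.52 and leaving out both db/m replicates 1 and 3 gave 0.26. The other single omissions gave -0.26 (db/m replicate 1), -0.14 (db/m replicate 2), -0.21 (db/m replicate 4), -0.32 (db/db replicate 1) and 0.18 (db/db replicate 2).

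Relative to Csf1r within each library, Ccr2 ran from 0.0544 in db/db replicate 2 to 0.238 in db/db replicate 1. The genotypes had means of 0.116 ± 0.0376 for db/m and 0.147 ± 0.0789 for db/db (SD, n = 4) and overlapped. Db/db replicate 1 also had the highest ratio to Csf1r of H2-Aa (1.39 against 0.387 to 0.932 in the other 7 libraries), a chain of the MHC class II molecule that presents peptides to helper T cells and that many Ccr2-positive macrophages carry. In db/db replicate 2, the lowest for Ccr2, the H2-Aa ratio was 0.850, inside the range of the rest. Db/db replicate 3 and db/m replicate 3, the next highest for Ccr2 (0.179 and 0.160), had H2-Aa ratios of 0.775 and 0.387, the last being the lowest of all libraries. The ratios of the resident receptors to Csf1r had similar means in the genotypes: 0.776 ± 0.210 and 0.732 ± 0.238 for Cd163, 0.934 ± 0.136 and 0.917 ± 0.167 for Mrc1, and 0.821 ± 0.177 and 0.908 ± 0.272 for Lyve1 (db/m and db/db, SD, n = 4).

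Lyz2, lysozyme of phagocytes (ENSMUSG00000069516, chromosome 10, 117277331 to 117282321), had the most counts. It had 390, 364, 143 and 296 CPM in the db/m libraries and 234, 425, 587 and 170 in the db/db libraries. As with C1q, db/m replicate 3 and db/db replicates 1 and 4 were the low libraries. The means were 298 ± 111 and 354 ± 189 CPM (SD, n = 4), and the log2 fold change was 0.25 (SE 0.40, 95% interval -0.65 to 1.15; edgeR with Benjamini-Hochberg adjustment, adjusted p = 0.779). Leaving out db/db replicate 3 gave -0.11, db/db replicate 4 0.48, db/db replicate 1 0.40, db/db replicate 2 0.15 and db/m replicate 1 0.41. Leaving out db/m replicate 3 gave 0.024, and leaving out both db/m replicates 1 and 3 gave 0.095. The paralogue Lyz1 took 0.469% to 2.93% of the counts of both genes, most in db/db replicate 3; how reads that match both genes were assigned is not stated. Db/db replicate 3 also had the highest neutrophil markers, which summed to 80.1 CPM there and to 4.47 to 25.4 in the other 7 libraries, and their part in its Lyz2 level was not tested.

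**Figure D2:**
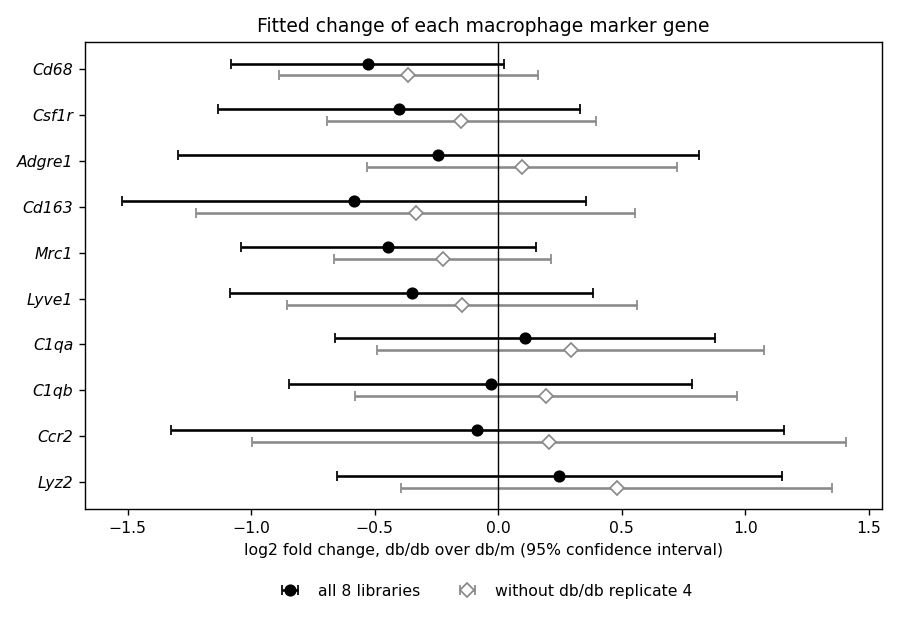
Fitted log2 fold change of each marker, db/db over db/m (horizontal axis), with its 95% confidence interval, from all 8 libraries (filled circles) and without db/db replicate 4 (open diamonds). All 20 intervals include 0, and every estimate is higher without that library, which moved the median of the 10 from -0.30 to -0.03.

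Compared per kilobase of exon, so that genes can be set beside each other, Lyz2 stood at 227 ± 84.3 RPKM for db/m and 269 ± 144 for db/db (SD, n = 4), above C1qa (90.5 ± 31.8 and 97.5 ± 40.8) and C1qb (80.4 ± 23.7 and 78.7 ± 40.4). Lyve1 followed at 21.7 ± 7.50 and 17.0 ± 7.31 RPKM and Csf1r at 13.3 ± 3.65 and 10.03 ± 4.48. Mrc1 (10.9 ± 1.46 and 8.02 ± 3.15), Cd163 (11.3 ± 6.18 and 7.57 ± 3.87) and Cd68 (10.4 ± 1.47 and 7.22 ± 2.48) could not be ordered, since Mrc1 exceeded Cd163 in 6 of 8 libraries and Cd163 exceeded Cd68 in 3 of 8. Adgre1 was lower, at 6.92 ± 1.57 and 5.84 ± 3.74 RPKM, below Cd68 in 7 of 8 libraries. Ccr2 was lowest of the 10 in all 8 libraries, at 1.37 ± 0.787 and 1.29 ± 0.950 RPKM. C1qa exceeded C1qb in 7 of 8 libraries. Csf1r exceeded Mrc1 in all 8 but Cd163 and Cd68 in 6 of 8 each.

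Summed over the 10 members, the level was 931, 855, 679 and 720 CPM in the db/m libraries and 565, 993, 1170 and 383 in the db/db libraries, so that db/db held the highest pair and the lowest pair. Means were 796 ± 117 CPM for db/m and 778 ± 366 for db/db (SD, n = 4). Lyz2 weighed heavily in these sums, from 143 of 679 CPM in db/m replicate 3 to 587 of 1170 in db/db replicate 3. The mean log2 CPM over the members was 5.63 ± 0.13 for db/m and 5.30 ± 0.72 for db/db (SD, n = 4), and 5.62 in db/db without replicate 4. On the log2 scale the SD over libraries was larger in db/db than in db/m for all 10 members, as it was for 28.7% of all tested genes. The median SD of the members was 0.52 for db/m and 0.78 for db/db, and that of all tested genes 0.35 and 0.21. Without db/db replicate 4, compared so after the data were seen, the SD was larger in db/db for 6 of the 10 members (27.0% of tested genes), with a median of 0.53. That comparison kept db/m replicate 3. With db/m replicate 3 left out as well, the SD of Lyve1 was larger in db/m (0.52 against 0.48). Those of the other members were then larger in db/db, such as C1qa (0.15 for db/m and 0.56 for db/db) and Lyz2 (0.21 and 0.67). The share of all tested genes was not computed with both libraries left out, so nothing particular to the members can be read from that setting. The difference in spread between the genotypes was not tested.

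Db/db replicate 4 was the lowest library in 8 of the 10 members, as it was in 10.3% of all tested genes, and in C1qa and Lyz2 only db/m replicate 3 was lower. Its members stood at 0.170 (Adgre1) to 0.573 (Cd68) of the mean of the other 3 db/db libraries. The sums of some other lists were low there too, and others were not. The sum of 16 further pan-macrophage genes was 0.451 of the mean of the other db/db libraries, that of 7 MHC class II genes 0.336 and that of 5 pan-leukocyte genes 0.552. The further resident macrophage genes stood at 0.643, the growth and transcription factors at 0.833 and the monocyte and recruited macrophage genes at 0.960. The chemokines stood at 1.18 and the dendritic cell markers, highest in this library, at 1.23. Single genes weighed heavily in such sums, which say little of the other genes listed. Cxcl12 held 795 of the 865 CPM of the chemokines in this library. Ace, Nr4a1 and Vcan had 80.3, 84.5 and 35.8 of the 253 CPM of the monocyte and recruited macrophage genes. Gas6 had 161 of the 307 CPM of the further resident macrophage genes in this library, and 171, 181 and 178 CPM in db/db replicates 1 to 3. Gene by gene, this library was lowest for 2 of 8 tested chemokines, 0 of 15 monocyte and recruited macrophage genes and 11 of 16 further pan-macrophage genes. Vascular endothelial markers were not low in this library, at 1795 CPM against 1296 to 1662 in the other 7, and cardiomyocyte markers (1.12 of the mean of the other db/db libraries), fibroblast markers (0.926) and mast cell markers (0.989) were nearer to that mean. Why this library was low was not tested.

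**Figure D3:**
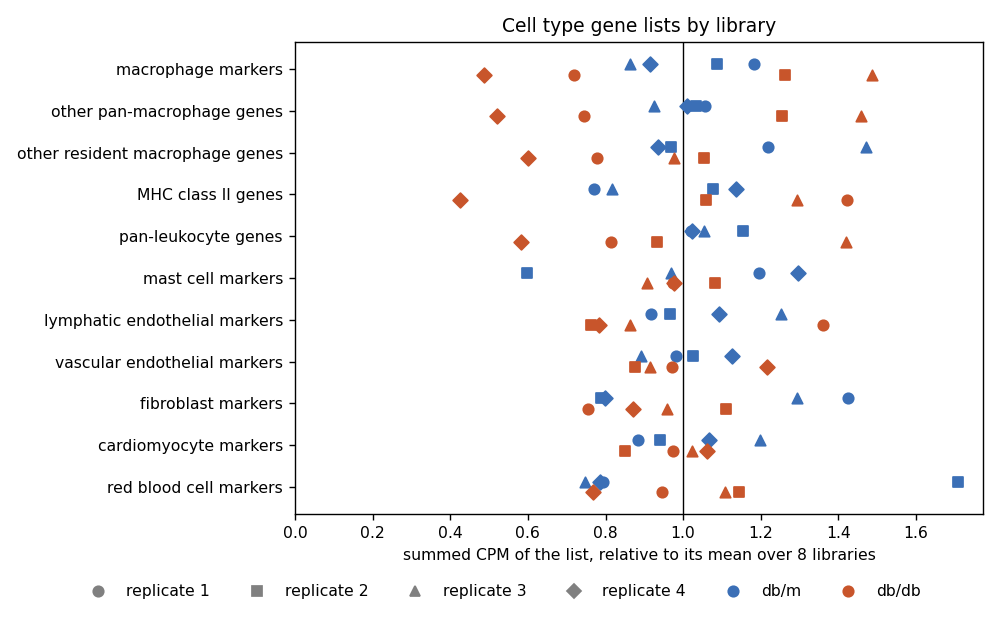
Summed CPM of each gene list relative to its mean over the 8 libraries (horizontal axis), with db/m in blue, db/db in orange and the replicate number as shape. Db/db replicate 4 (orange diamond) is the lowest library for the macrophage, MHC class II and pan-leukocyte lists and the highest for vascular endothelium.

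Db/m replicate 3 departed in another way, by gene length. The members with the shortest exons were low in it and the longer ones high. Relative to the mean of the other 3 db/m libraries, Lyz2 (1316 bases), C1qa (1040), C1qb (1088) and Cd68 (1257) stood at 0.409, 0.422, 0.498 and 0.747. Lyve1 (2919 bases), Adgre1 (3238), Csf1r (5774), Mrc1 (6371), Cd163 (5461) and Ccr2 (6760) stood at 1.49, 1.50, 1.61, 1.20, 2.45 and 2.57. Across the 10 members the Spearman correlation between length and level relative to the mean of all libraries was 0.76 in this library and between -0.75 and 0.60 in the other 7, with -0.75 in db/db replicate 4. With each library's trend on gene length removed, a setting chosen with the data known, 0 of 10 members passed and their median log2 fold change was -0.31. In db/db replicate 4 short and long members alike were below the mean of the other db/db libraries. Its correlation with length was nonetheless about as large over the members, in the other direction, and -0.15 over all tested genes.

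**Figure D4:**
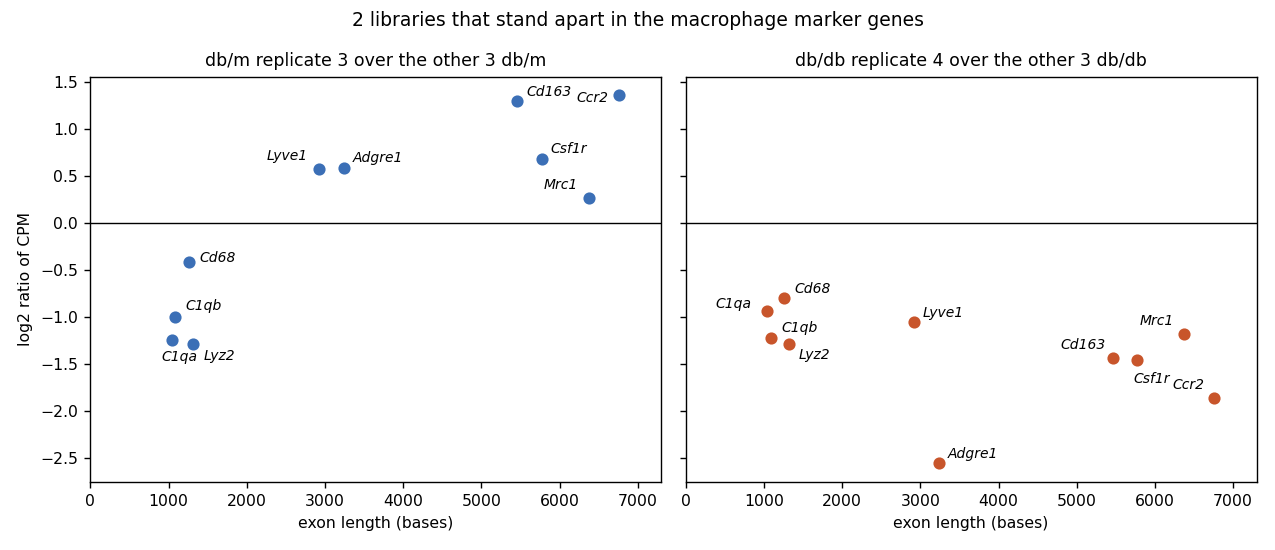
Log2 ratio of CPM in db/m replicate 3 over the mean of the other 3 db/m libraries (left) and in db/db replicate 4 over the mean of the other 3 db/db libraries (right), against exon length in bases, for the 10 markers. On the left the 4 shortest genes lie below 0 and the other 6 above, and on the right all 10 lie below 0.

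Other genes of macrophage biology were read in lists from textbook knowledge, and 0 of the genes in any of them passed edgeR with Benjamini-Hochberg adjustment. Of these lists, further resident macrophage genes had the most genes at an unadjusted p under 0.05 by edgeR, 4 of 12 (7.84% of all tested genes were lower at that p). Single genes of other lists had smaller p. In the resident list 12 of 12 log2 fold changes were below 0, with a median of -0.46 (9 of 12 and -0.36 without db/db replicate 4). Timd4, a phosphatidylserine receptor of self-renewing macrophages, had 4.48, 4.86, 8.48 and 3.70 CPM in the db/m libraries and 2.48, 2.91, 3.82 and 2.03 in the db/db libraries, a log2 fold change of -0.94 (SE 0.31, adjusted p = 0.301 by edgeR with Benjamini-Hochberg adjustment). Its genotypes overlapped by a single library, db/db replicate 3, and its value was -0.61 without db/m replicates 1 and 3. Stab1, a scavenger receptor of macrophages and some endothelium (-0.69, SE 0.26), the lectin gene Cd209f (-1.21, SE 0.52) and Gas6, a ligand that bridges dying cells to the receptor Mertk (-0.40, SE 0.18), did not pass either, and without db/m replicates 1 and 3 they had -0.28, -0.34 and -0.06. In that setting the list had a median of -0.24, with 10 of 12 below 0.

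Among 16 further pan-macrophage genes, 10 values were above 0 and 6 below, with a median of 0.01. Laptm5, a lysosomal membrane protein of blood cells, had 52.9 ± 3.19 CPM in the db/m libraries and 46.6 ± 19.6 in the db/db libraries (SD, n = 4), and Fcgr1, the high-affinity IgG receptor, had a log2 fold change of -0.50 (SE 0.47). Cd14 and Fcer1g lay on the other side of 0, with 0.24 (SE 0.37) and 0.20 (SE 0.38). Without db/db replicate 4 the list's median was 0.30, with 14 of 16 above 0, and without db/m replicates 1 and 3 it was -0.085, with 5 above 0.

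Genes of monocytes and recruited macrophages had no common direction, with 8 of 15 above 0 and a median of 0.01 (10 of 15 and 0.19 without db/m replicates 1 and 3). Chil3, a chitinase-like protein of monocytes and alternatively activated macrophages, had 0.484, 1.18, 0.0827 and 0.427 CPM in the db/m libraries and 1.35, 1.78, 2.95 and 1.44 in the db/db libraries. All db/db libraries lay above all db/m libraries in Chil3, at a low level, and its log2 fold change was 1.80 (SE 0.60, adjusted p = 0.302 by edgeR with Benjamini-Hochberg adjustment) and 1.22 without db/m replicates 1 and 3. Vcan, a matrix proteoglycan made by monocytes and by fibroblasts, had -1.19 (SE 0.37) with all libraries and -0.35 without db/m replicates 1 and 3. Ace, the angiotensin-converting enzyme, had -0.57 (SE 0.19) and -0.31, and the monocyte antigen gene Ly6c2 had 0.65 (SE 0.37) and 0.19.

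Of the growth factors and transcription factors of the lineage, 13 were tested, with 9 below 0 and a median of -0.32 (10 and -0.12 without db/m replicates 1 and 3). Csf1, the main ligand of Csf1r, had 73.4, 78.5, 88.1 and 82.8 CPM in the db/m libraries and 66.8, 57.1, 82.6 and 59.4 in the db/db libraries, a log2 fold change of -0.28 (SE 0.14, adjusted p = 0.420 by edgeR with Benjamini-Hochberg adjustment). Cebpa, a myeloid and adipocyte transcription factor, had -2.13 (SE 0.66) with all libraries and -0.36 without db/m replicates 1 and 3. Klf4 (-0.42, SE 0.20) and Zeb2 (-0.59, SE 0.30, and 0.015 without those libraries) did not pass either.

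The chemokines that draw monocytes had 8 tested genes of 11, with 6 below 0 and a median of -0.11 (7 of 9 and -0.18 without db/m replicates 1 and 3, -0.019 without db/db replicate 4). Ccl8, a ligand of several chemokine receptors, had 1.03 (SE 0.67), with 19.0 CPM in db/db replicate 3 and 1.28 to 9.15 in the other 7 libraries. Cxcl12 (-0.26, SE 0.23), Cx3cl1 (-0.12, SE 0.15) and Ccl9 (-0.25, SE 0.35) were below 0, as most of the list was. Complement genes beyond C1q had 9 of 12 below 0 and a median of -0.16 (4 of 12 and 0.13 without db/m replicates 1 and 3), and the largest value, that of the adipocyte product Cfd (-7.81, SE 1.72, adjusted p = 0.159 by edgeR with Benjamini-Hochberg adjustment), lay in db/m replicates 1 and 3, with 96.1 and 51.9 CPM against 0 to 1.47. DESeq2 called Cfd and no other gene of these macrophage, chemokine, complement and MHC class II lists. MHC class II genes had 5 of 7 above 0 and a median of 0.15, which became 0.41 with db/db replicate 4 left out and -0.10 with both db/m replicates 1 and 3 left out.

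Markers of other leukocytes summed to less than the 10 macrophage markers in every library. T cell markers summed to 2.59 to 6.68 CPM, B cell markers to 1.45 to 5.45, mast cell markers to 13.2 to 28.5 and neutrophil markers to 4.47 to 80.1, against 383 to 1170 for the 10 macrophage markers; these sums depend on the genes listed and are not cell numbers. The dendritic cell lectin gene Cd209a, which monocyte-derived cells also express, had 1.28, 0.982, 1.70 and 0.617 CPM in the db/m libraries and 0.108, 0.282, 0.138 and 0 in the db/db libraries, with the genotypes apart. Its log2 fold change of -3.03 (SE 0.66) was called by DESeq2 (adjusted p = 0.00556) and not by edgeR (adjusted p = 0.158, both with Benjamini-Hochberg adjustment), on few counts. Over all tested genes 9.65% had the genotypes apart, and DESeq2 called 1.78%. The dendritic cell list did not follow Cd209a, with 2 of 5 tested genes above 0 and a median of -0.09. The genotypes were also apart in Cd8a (1.28, SE 0.48) and Cd79a (-1.26, SE 0.50), which edgeR and DESeq2 did not call.

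The genes whose levels over the 8 libraries most resembled the members' common pattern were sought among 15937 genes. The 8 closest, by Pearson correlation of log2 CPM with the mean standardised level of the members, were Ms4a7 (0.9752), Ly9 (0.973), Laptm5 (0.972), Gm12700 (0.969), Tbxas1, thromboxane synthase (0.968), Fcgr3 (0.966), Borcs8 (0.963) and Rnf130 (0.951). Ms4a7, Laptm5 and Fcgr3 stood in the list of further pan-macrophage genes. All 8 were lower in db/db replicate 4 than in any other library, which choosing them by likeness to a pattern lowest there largely fixed in advance. Ms4a7 had 3.16 ± 0.784 CPM in the db/m libraries and 2.78 ± 1.91 in the db/db libraries, and Fcgr3, a low-affinity IgG receptor, 25.9 ± 2.61 and 24.2 ± 12.02 (SD, n = 4). With 8 libraries and so many genes, high correlations arise readily, and these values describe likeness only.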

How the data were processed

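Heart RNA of 8 mouse libraries (3 µg each) was sequenced, and the deposited raw counts, 1 column per library for each Ensembl gene, were used without any scaling by the authors, per the file headers. Libraries were made with a NEBNext Ultra kit, per the labels' protocols. Reads were placed on mm10, as the submitters' processing notes state. What aligned and counted them, and whether strand was used, was not given in the sources used here, so overlapping and near-identical genes are uncertain. Exon length, another deposited value per gene, was used for RPKM. The 8 single-sample files held the same values as the whole table.

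Symbols came from a table of Ensembl identifiers and names (55394 of 55573 rows matched). EdgeR 4.0.16 in R 4.3.3 was used with filterByExpr (minimum count 10, minimum total 15), TMM scaling and the robust quasi-likelihood F test, two-sided, with genotype as the single factor, adjusted by Benjamini-Hochberg over 17411 genes at a threshold of 0.05. The SE and 95% interval come from that test. Log2 CPM used a prior count of 2. Fits were tested on simulated counts with the same spread setting for every gene and no library set apart. That check does not show how well they detect changes in these data. DESeq2 1.42.0, limma-voom 3.58.1, other scalings and filters, a replicate block and leaving out each library were alternatives. 2 further settings were added with the data known, namely leaving out db/m replicates 1 and 3, and removing each library's trend on gene length (lowess span 0.3). Similar transcripts were sought with BLAST 2.17.0 (at least 85% identity over at least 300 bases).

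Members and lists were chosen with earlier results of these data known, so no list was tested as a set. Genes named were the 10 members, up to 4 genes of smallest p in some of the lists, the 8 closest in pattern (mean of at least 1 CPM), Lyz1 and C1qc. Hmgxb3 was named for its overlap after its values were seen. Some results of the similarity search are not reported here.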

Additional observations from a re-analysis of the deposited data

How the results depend on the processing

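For the members, 0 of 10 passed under each of the 18 other settings tried, with adjusted p from 0.155 upward (edgeR, DESeq2 or limma-voom with Benjamini-Hochberg adjustment). Of 180 gene values, 160 kept their direction and 20 changed sign. Leaving out each library in turn, the median log2 fold change of the members ran from -0.54 to -0.03. The values that turned were, without a replicate, C1qa -0.12 to 0.29, C1qb -0.32 to 0.19, Ccr2 -0.52 to 0.40, Lyz2 -0.11 to 0.48 and Adgre1 -0.56 to 0.095. By limma-voom C1qa had -0.20, Ccr2 0.084 and Lyz2 -0.11. Without db/m replicates 1 and 3 Lyve1 had 0.14, C1qa -0.057 and Ccr2 0.26, and with the length trend removed Ccr2 had 0.046. The cause of these turns was not tested.

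With the replicate number of the titles as a replicate block the median was -0.44 and 0 of 10 members passed, while 5 genes in all were called against 1. Over all tested genes DESeq2 called 354, limma-voom 130, edgeR without a filter 27, with the length trend removed 12, without both db/m replicates 1 and 3 46, and without a replicate 0 to 106, the most without db/m replicate 3; none was a member. Same-numbered libraries did not deviate together (correlations of -0.09, 0.06, 0.03 and 0.02), and only db/m replicate 2 correlated best with its own number, so the numbers were taken as names, not pairs. Depth limits Ccr2 most, with as few as 55 counts in a library. With 4 libraries a genotype, the 95% intervals still hold changes such as a fold of 0.47 (Cd68) or 2.21 (Lyz2), so a missing call does not show equal levels.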
